A study of Mus musculus with 22 samples.

Results

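Nanog, Esrrb, Klf2, Klf4, Klf5, Tbx3, Tfcp2l1, Zfp42 and Nr5a2 encode transcription factors that are taken as the naive pluripotency network of mouse cells. They were listed by name, and all 9 were measured, each by 1 probe set, among 19938 genes with a value. Naive pluripotency is the state of the preimplantation epiblast. In culture, leukaemia inhibitory factor (LIF) acts through the kinase JAK and the factor STAT3, inhibition of GSK3 relieves repression of target genes by TCF7L1, and inhibition of MEK removes an ERK signal that drives differentiation. These inputs meet on the factors named here, which also bind each other's regulatory sequences. In serum, several of them are known to be expressed unevenly from cell to cell, and an array of a whole culture cannot show that.

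RNA of 22 mouse cell cultures, either embryonic germ (EG) or embryonic stem (ES) cells, was hybridised to 1 array each. EG cells are pluripotent lines that arise from primordial germ cells, here of E8.5 embryos, and ES cells arise from preimplantation embryos. The EG lines were derived in fetal calf serum (FCS, n = 4, 1 female), in FCS for 48 hours and then in 2i (2is, n = 4, 2 female), or directly in 2i (n = 4, 3 female). The ES cultures were in FCS (n = 5, 2 female) or in 2i (n = 5, 2 female), and established ES lines were also moved between the media. Every FCS culture received LIF and grew on mouse embryonic fibroblast feeders. Every 2i culture received LIF, PD0325901 against MEK and CHIR99021 against GSK3 in N2B27 medium and grew on laminin, so medium, inhibitors and feeder layer changed together and cannot be told apart. The strain label of all samples is 129SvEv x Oct4-delta-PE-GFP, a transgenic line on a mixed background in which Oct4 regulatory sequence without the proximal enhancer drives GFP.

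The numbered samples of a group are called lines here. The labels do not say whether ES samples with the same number are 1 line in both media, although their labelled sex and batch agree by number. The p-values measure only the spread between these samples, which may be partly technical. The cell type label reads EGCs for all 10 ES samples, whose titles and source names say ES, and they were treated as ES. Labelled batch 1 held 16 arrays, including all 12 EG arrays, and batch 2 held 6 ES arrays. The pluripotency marker Pou5f1 lay between 11.38 and 11.70 on the log2 scale over all arrays, and Sox2 between 11.30 and 11.84. Of 10 feeder fibroblast markers, 9 were measured. Their mean log2 value was 5.32 to 5.90 in the FCS lines and 4.86 to 5.17 in the 2i and 2is lines, without overlap. Lum stayed below 4.88 in every group, the highest female value of the Y-linked gene Eif2s3y, which marks background here, whereas Col1a1 reached 7.63 and Col1a2 7.40 in FCS. These collagen genes separated the media most, so the marker mean leans on them. Pdgfrb had the opposite order, with a mean of 5.158 in EG FCS and in ES FCS, 5.381 in EG 2is, 5.465 in EG 2i and 5.279 in ES 2i. In RNA of whole cultures, fewer cells that express a gene and less RNA per cell cannot be told apart.

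The sequence before the start site was available for 7 of the 9 genes, not for Klf5 and Tbx3. The 250 bases upstream of each start were searched on both strands for sites of factors of the same circuit, and 3 of the windows are shown because they hold a match, printed in capitals. The sequences are from RefSeq (GRCm38.p6), written 5′ to 3′ along the gene's own strand. Nanog lies at chr6:122707489-122714633, Zfp42 at chr8:43295067-43307009 and Esrrb at chr12:86361117-86521628.
Nanog, chr6:122707239-122707488, plus strand: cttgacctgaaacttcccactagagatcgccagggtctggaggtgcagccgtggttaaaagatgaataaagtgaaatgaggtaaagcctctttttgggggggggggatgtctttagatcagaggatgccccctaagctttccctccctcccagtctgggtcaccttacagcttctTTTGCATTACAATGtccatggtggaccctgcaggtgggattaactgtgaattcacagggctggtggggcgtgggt
Zfp42, chr8:43307010-43307259, minus strand: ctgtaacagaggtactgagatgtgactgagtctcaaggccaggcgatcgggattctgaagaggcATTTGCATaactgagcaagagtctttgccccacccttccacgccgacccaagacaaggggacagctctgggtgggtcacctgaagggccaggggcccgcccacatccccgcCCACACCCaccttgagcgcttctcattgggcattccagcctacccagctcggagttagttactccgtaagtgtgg
Esrrb, chr12:86360867-86361116, plus strand: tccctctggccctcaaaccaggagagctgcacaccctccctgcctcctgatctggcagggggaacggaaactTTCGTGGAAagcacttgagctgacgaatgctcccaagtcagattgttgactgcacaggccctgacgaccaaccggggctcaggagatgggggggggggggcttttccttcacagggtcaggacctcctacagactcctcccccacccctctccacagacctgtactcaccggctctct
In the Nanog window, the capitals mark the octamer part TTTGCAT, which POU5F1 binds, 1 base and the SOX part ACAATG. The 14 bases begin at position -75 from the start. This composite occurred in 2 of 32851 windows of the same length (0.00609%), and both were overlapping windows of Nanog. In the Zfp42 window, the capitals mark the octamer ATTTGCAT at position -186, present in 1.6% of all windows, and the CACC box CCACACCC at position -75, a site of the KLF family, present in 3.2%. In the Esrrb window they mark TTCNNNGAA at position -178, the pattern bound by STAT factors, present in 7.02% of all windows and the same on both strands. The ESRRB site TCAAGGTCA, found in 0.387% of all windows, the shorter nuclear receptor site AAGGTCA, in 4.08%, and the TCF site CTTTGAT, in 3.21%, were in 0 of the 7 genes' windows. A match of letters describes the window and does not show binding.

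In 2i, 3 of the factors were higher in every culture comparison: Nanog, Tbx3 and Tfcp2l1. Klf2 was lower in every one, Klf4 and Zfp42 did not pass the test in any, and Esrrb, Klf5 and Nr5a2 stood between. Calls were made in a limma fit over all genes and arrays, where the p-value after Benjamini-Hochberg adjustment had to be under 0.05, with terms for group, labelled batch and labelled sex. In EG 2i against EG FCS, 4 of the 9 rose and 1 fell, against 11.4% of all genes called higher and 12.5% called lower. In EG 2is against EG FCS, 5 rose and 1 fell, against 12.7% and 12.9%. In ES 2i against ES FCS, 4 rose and 1 fell, against 16.6% and 14.9%. The median log2 difference of the 9 was 0.34, 0.35 and 0.27 in these comparisons, and that of all genes 0.01, -0.01 and 0. Both EG comparisons use the same 4 FCS arrays, so they are not independent of each other.

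**Figure D1:**
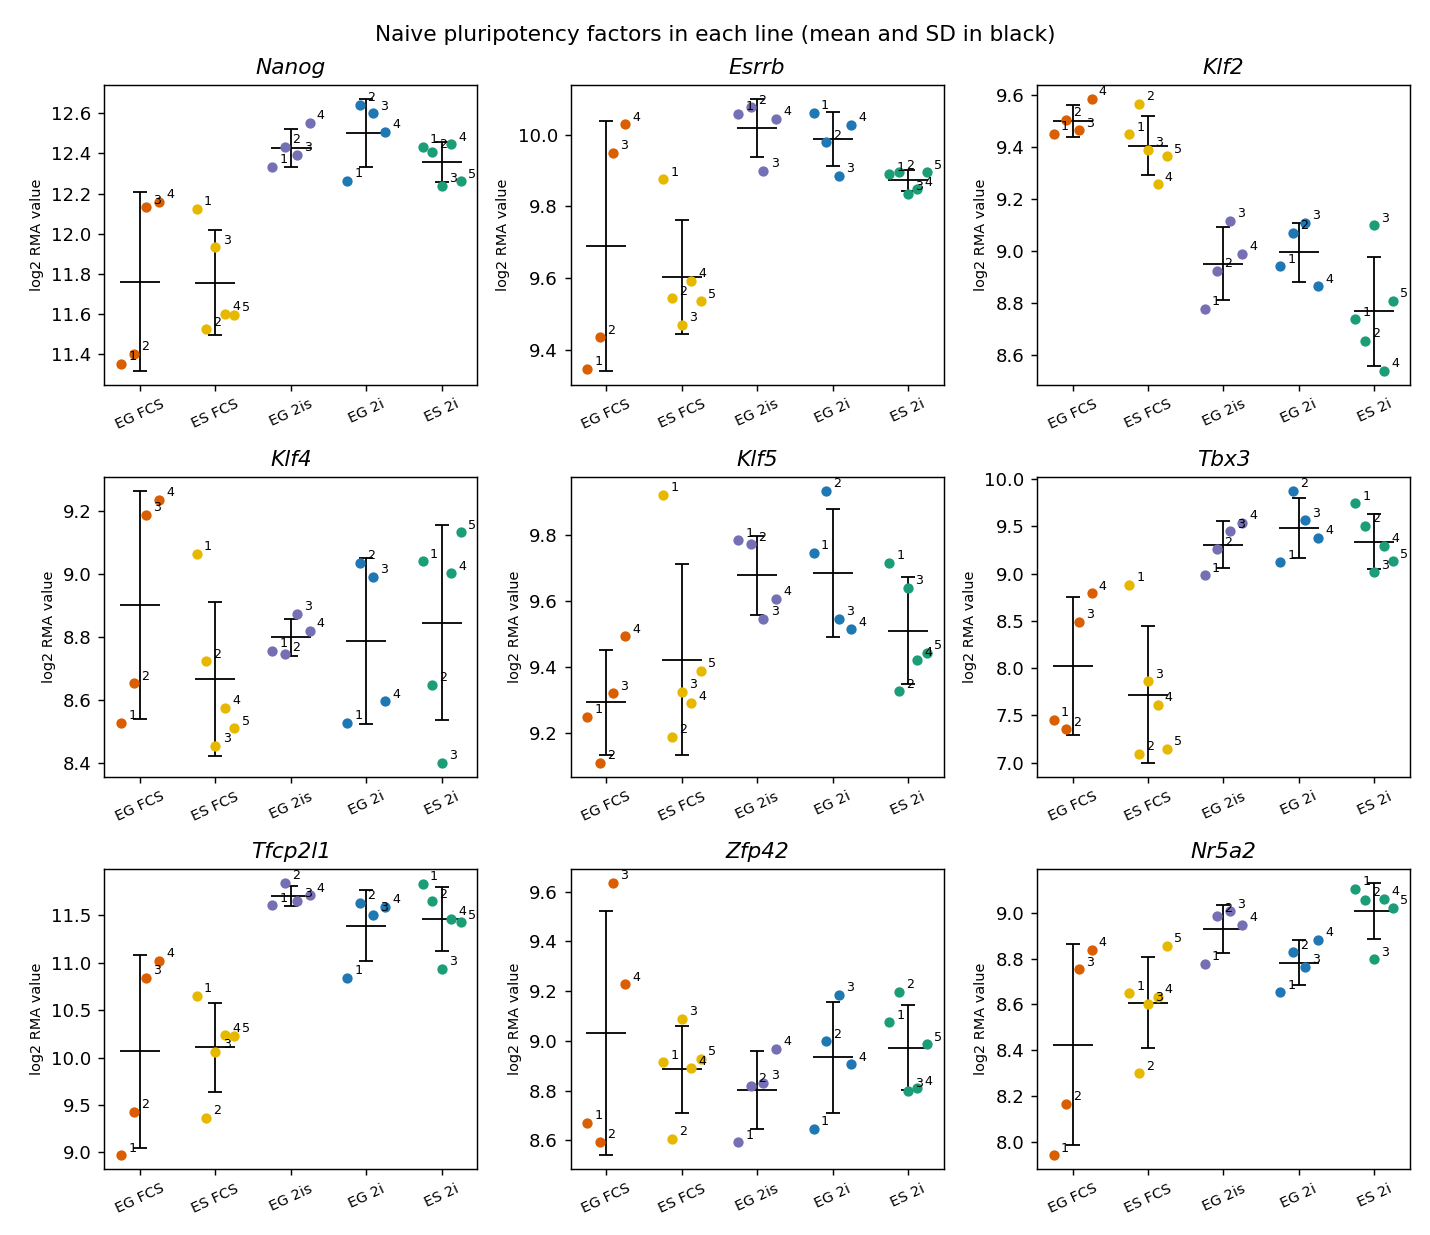
Log2 RMA value (vertical axis, scaled separately for each gene) of the 9 factors in every line, with line numbers beside the points and the group mean ± SD in black. Nanog, Tbx3 and Tfcp2l1 are high in 2i, Klf2 is low in 2i, and EG FCS lines 3 and 4 lie above lines 1 and 2 in every panel except that of Klf2.

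Nanog, a homeodomain factor that holds cells in self-renewal, was at 11.35, 11.40, 12.13 and 12.16 on the log2 scale in EG FCS lines 1 to 4. It was at 12.26, 12.64, 12.60 and 12.51 in EG 2i and at 12.33, 12.43, 12.39 and 12.55 in EG 2is. Every 2i and 2is line lay above every EG FCS line, and EG FCS lines 1 and 2 stood well below lines 3 and 4. The difference was 0.73 ± 0.17 (SE, log2; 1.66-fold, adjusted p = 0.0043) for 2i and 0.66 ± 0.17 (adjusted p = 0.00599) for 2is. In ES FCS, Nanog was at 12.13, 11.52, 11.93, 11.60 and 11.60 in lines 1 to 5, and in ES 2i at 12.43, 12.41, 12.24, 12.45 and 12.26. The ES groups did not overlap either, with FCS lines 1 and 3, the female lines, above the others. The ES difference was 0.60 ± 0.15 (adjusted p = 0.0036). When EG FCS line 1 was left out, both EG comparisons missed the threshold (adjusted p = 0.052 and 0.0545).

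The T-box factor Tbx3, which supports self-renewal downstream of several signals and lies at chr5:119670534-119684724, covered a wide range among serum lines. It was at 7.45, 7.35, 8.49 and 8.79 in EG FCS and at 8.88, 7.09, 7.86, 7.61 and 7.15 in ES FCS. In EG 2i it was at 9.12, 9.88, 9.56 and 9.38, in EG 2is at 8.98, 9.26, 9.45 and 9.54, and in ES 2i at 9.74, 9.51, 9.01, 9.29 and 9.13. No 2i or 2is line was as low as the highest serum line, which was ES FCS line 1. Tbx3 rose by 1.35 ± 0.33 (SE, log2; 2.55-fold, adjusted p = 0.00543) in EG 2i and by 1.23 ± 0.32 (adjusted p = 0.00717) in EG 2is. It rose by 1.62 ± 0.28 (3.07-fold, adjusted p = 0.000177) in ES 2i. Leaving out EG FCS line 1 ended both EG calls (adjusted p = 0.0611 and 0.0622), whereas the ES difference was called in all 25 alternatives computed for it.

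Tfcp2l1, a CP2-family factor that STAT3 induces, lies at chr1:118627923-118685168. It was at 8.97, 9.43, 10.85 and 11.02 in EG FCS lines 1 to 4, so that lines 3 and 4 came close to the 2i level. In EG 2i it was at 10.84, 11.64, 11.50 and 11.59, with line 1 alone inside the FCS range, and in EG 2is at 11.61, 11.84, 11.65 and 11.72, above every FCS line. It was at 10.65, 9.36, 10.06, 10.24 and 10.23 in ES FCS and at 11.84, 11.65, 10.94, 11.46 and 11.43 in ES 2i, and the ES groups did not overlap. The rise was 1.44 ± 0.37 (SE, log2; 2.71-fold, adjusted p = 0.00719) in EG 2i, 1.69 ± 0.36 (3.23-fold, adjusted p = 0.00137) in EG 2is and 1.35 ± 0.31 (2.56-fold, adjusted p = 0.00223) in ES 2i. The first of these missed the threshold when EG FCS line 1 was left out (adjusted p = 0.0814).

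Esrrb, an orphan nuclear receptor that TCF7L1 represses and that can stand in for Nanog, was at 9.35, 9.44, 9.95 and 10.03 in EG FCS. It was at 10.06, 9.98, 9.89 and 10.03 in EG 2i and at 10.06, 10.08, 9.90 and 10.04 in EG 2is. EG FCS lines 3 and 4 lay within the 2i range and lines 1 and 2 below it. The differences were 0.34 ± 0.12 (SE, log2; adjusted p = 0.0481) and 0.35 ± 0.12 (adjusted p = 0.0321). The first was called in 8 of 21 alternatives and lost the call without EG FCS line 1 or 2 or any EG 2i line, and the second was lost without EG FCS line 1 or 2 or EG 2is line 1, 2 or 4. In ES cells it was at 9.88, 9.55, 9.47, 9.59 and 9.54 in FCS and at 9.89, 9.90, 9.84, 9.85 and 9.90 in 2i, with FCS line 1 inside the 2i range. The ES difference, 0.27 ± 0.10, missed the threshold (adjusted p = 0.0538).

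Nr5a2, a nuclear receptor that can activate Pou5f1, lies at chr1:136842562-136960448. It was at 7.94, 8.17, 8.75 and 8.84 in EG FCS, at 8.65, 8.83, 8.76 and 8.88 in EG 2i and at 8.78, 8.99, 9.01 and 8.95 in EG 2is. Again lines 3 and 4 in FCS reached the 2i range and lines 1 and 2 did not. It rose by 0.53 ± 0.15 (SE, log2; adjusted p = 0.0127) in EG 2is, and the EG 2i difference of 0.41 ± 0.16 was not called (adjusted p = 0.0638). In ES cells it was at 8.65, 8.30, 8.60, 8.63 and 8.86 in FCS and at 9.11, 9.06, 8.80, 9.06 and 9.02 in 2i, a rise of 0.40 ± 0.13 (adjusted p = 0.0267). The EG 2is call was lost without EG FCS line 1 or 2, with an adjusted p of up to 0.107, and the ES call without ES FCS line 2 or 4 or ES 2i line 1 or 2, with an adjusted p of up to 0.115.

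The Krüppel-like factors, zinc-finger proteins that bind CACC boxes and can replace each other in part, did not move together. Klf2, at chr8:72319062-72321654, fell. It was at 9.45, 9.51, 9.46 and 9.59 in EG FCS, at 8.94, 9.07, 9.11 and 8.86 in EG 2i and at 8.78, 8.92, 9.12 and 8.99 in EG 2is. In ES cells it was at 9.45, 9.57, 9.39, 9.26 and 9.36 in FCS and at 8.74, 8.65, 9.10, 8.54 and 8.81 in 2i. FCS and 2i lines did not overlap in any of the 3 comparisons, and the lowest serum line, ES FCS line 4, lay above the highest 2i or 2is line, EG 2is line 3. Klf2 fell by 0.57 on the log2 scale in EG 2i (SE 0.10, 1.48-fold lower, adjusted p = 0.000244), by 0.58 in EG 2is (SE 0.09, adjusted p = 0.000111) and by 0.64 in ES 2i (SE 0.08, 1.55-fold lower, adjusted p = 7.2e-06). These calls held in all 21, 21 and 25 alternatives.

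Klf4, which STAT3 induces and which lies at chr4:55527137-55532475, was at 8.53, 8.65, 9.19 and 9.24 in EG FCS, at 8.53, 9.04, 8.99 and 8.60 in EG 2i and at 8.76, 8.75, 8.87 and 8.82 in EG 2is. In ES cells it was at 9.06, 8.72, 8.46, 8.58 and 8.51 in FCS and at 9.04, 8.65, 8.40, 9.002 and 9.13 in 2i. FCS and 2i lines overlapped in all 3 comparisons, and none was called (adjusted p = 0.786, 0.779 and 0.456 for differences of -0.09, -0.09 and 0.18). Klf5, at chr14:99298691-99313412, which also acts in the early epiblast and trophectoderm, was at 9.25, 9.11, 9.32 and 9.49 in EG FCS. It was at 9.75, 9.94, 9.55 and 9.52 in EG 2i and at 9.79, 9.77, 9.55 and 9.61 in EG 2is. These EG groups did not overlap, yet the differences of 0.33 ± 0.13 and 0.35 ± 0.13 (SE, log2) missed the threshold (adjusted p = 0.0849 and 0.0513). They were called in 6 and 12 of 21 alternatives, with an adjusted p from 0.0194 to 0.29 and from 0.0098 to 0.188. In ES cells Klf5 was at 9.92, 9.19, 9.33, 9.29 and 9.39 in FCS and at 9.72, 9.33, 9.64, 9.42 and 9.44 in 2i, overlapping, with a difference of 0.09 (adjusted p = 0.643).

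Zfp42, also named Rex1, is the zinc-finger gene most used as a reporter of the naive state. It was at 8.67, 8.59, 9.64 and 9.23 in EG FCS, at 8.65, 8.998, 9.19 and 8.91 in EG 2i and at 8.59, 8.82, 8.83 and 8.97 in EG 2is. In ES cells it was at 8.91, 8.61, 9.09, 8.89 and 8.93 in FCS and at 9.08, 9.20, 8.80, 8.81 and 8.99 in 2i. The groups overlapped throughout, and the highest values of all were EG FCS lines 3 and 4. The differences were -0.10, -0.23 and 0.09 for EG 2i, EG 2is and ES 2i (adjusted p = 0.77, 0.423 and 0.755).

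**Figure D2:**
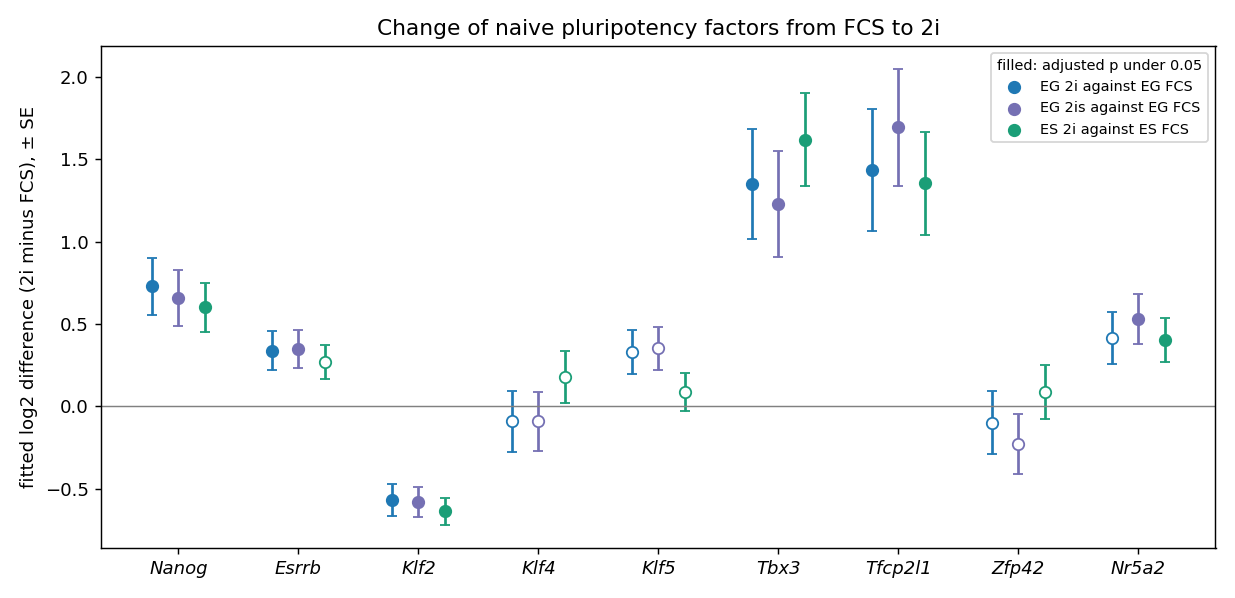
Fitted log2 difference (2i minus FCS) ± SE of each factor in EG 2i, EG 2is and ES 2i, with filled points where the adjusted p is under 0.05. Tbx3 and Tfcp2l1 show the widest rises, between 1.23 and 1.69, and Klf2 falls by 0.57 to 0.64 in the 3 comparisons.

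Within a medium, no difference by origin or by route into 2i was called for the 9 factors. In limma, 0 of 9 were called in EG 2i against EG 2is (0% of all genes higher, 0% lower), in EG FCS against ES FCS (0% and 0.01%), in EG 2i against ES 2i (1.2% and 2.52%) and in EG 2is against ES 2i (0% and 0.0451%). Nor was any called when the response of EG lines to 2i was set against that of ES lines (0.567% of all genes larger in EG, 0.873% smaller). At an unadjusted p under 0.05 the count was also 0 in each of these 5 comparisons, and the smallest p was 0.0919, for Klf2 in EG 2i against ES 2i (0.18 ± 0.10, SE, log2). The precision differed by gene. The EG response minus the ES response was 0.07 ± 0.13 for Klf2 and 0.13 ± 0.23 for Nanog, but 0.08 ± 0.48 for Tfcp2l1 and -0.27 ± 0.44 for Tbx3, so the last pair was measured with less precision. EG and ES lines also differ in batch, since all batch 2 arrays were ES.

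The ES comparison could be made in each batch. Tbx3 differed by 1.64 ± 0.50 (SE, log2; adjusted p = 0.0439) in batch 1 with 2 lines a medium, and by 1.60 ± 0.18 (adjusted p = 0.00157) in batch 2 with 3. Nanog differed by 0.60 in both (adjusted p = 0.166 and 0.0082). Klf2 differed by -0.81 and -0.52 (adjusted p = 0.000277 and 0.014), and Tfcp2l1 by 1.74 and 1.10 (adjusted p = 0.0555 and 0.000448). Nr5a2 differed by 0.61 and 0.26 (adjusted p = 0.108 and 0.0438). Esrrb differed by 0.18 and 0.33 (adjusted p = 0.632 and 0.00688). These 6 genes had the same direction in both batches, while Klf4 (-0.05 and 0.33), Klf5 (-0.03 and 0.17) and Zfp42 (0.38 and -0.10) changed sign and were not called in either.

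The factors also differed between lines of the same serum group, and in EG FCS most of them shared an order of the lines. In 8 of the 9 genes, Klf2 being the exception, lines 3 and 4 both lay above lines 1 and 2. This order was read from the values of these same genes, so its count is a description, and 24.1% of all genes showed it. Line 1 is female and lines 2 to 4 are male. The fitted female minus male difference over all groups ranged from -0.22 ± 0.23 (SE, log2; adjusted p = 0.626) for Tfcp2l1 to 0.23 ± 0.20 (adjusted p = 0.559) for Tbx3. The part of sex in the order of the lines was not tested.

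The spread was compared as the absolute deviation of each array from its group mean, scaled for group size, in the 9 FCS arrays against the 13 in 2i or 2is. Deviations within a group share its mean and are not independent, although the test treats them as independent. It was larger in FCS for 3 of the 9 factors and smaller for 0, against 0.577% and 1.21% of all genes. Nanog deviated by 0.33 in FCS and 0.10 in 2i on the log2 scale (difference 0.23 ± 0.04, SE, limma adjusted p = 0.00497). Esrrb deviated by 0.22 and 0.05 (difference 0.17 ± 0.04, adjusted p = 0.0327), and Tbx3 by 0.64 and 0.25 (difference 0.39 ± 0.10, adjusted p = 0.0477). Tfcp2l1 had values of 0.64 and 0.22 and Nr5a2 of 0.27 and 0.09, which did not pass (adjusted p = 0.107 and 0.112). Klf2 was the only factor with the lower value in FCS, 0.07 against 0.13 (adjusted p = 0.478). Zfp42, Klf4 and Klf5 gave differences of 0.12, 0.07 and 0.03 (adjusted p = 0.427, 0.619 and 0.789).

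**Figure D3:**
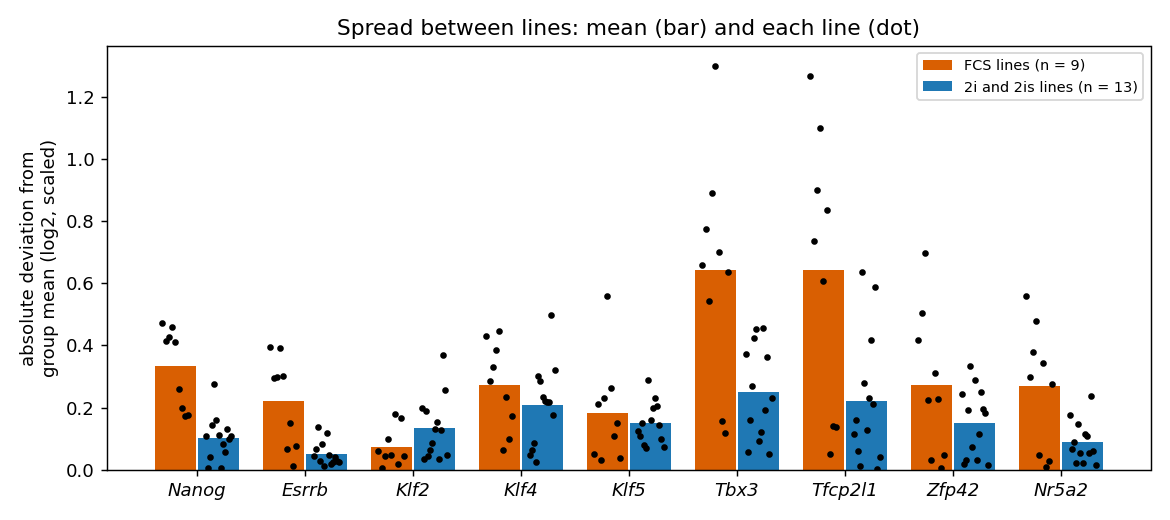
Absolute deviation from the group mean (log2, scaled for group size) of each line (points) and its mean (bars) for the 9 FCS lines and the 13 lines in 2i or 2is. The bars of Nanog are 0.33 in FCS and 0.10 in 2i, and those of Tbx3 0.64 and 0.25, whereas those of Klf2 are 0.07 and 0.13.

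The spread calls changed with the lines included. With EG lines alone, 5 factors were called: Nanog by 0.34 (adjusted p = 0.000904), Esrrb by 0.28 (adjusted p = 0.000415), Tbx3 by 0.47 (adjusted p = 0.0055), Tfcp2l1 by 0.80 (adjusted p = 0.000888) and Nr5a2 by 0.34 (adjusted p = 0.000848). With ES lines alone limma called 0 of the 9 and 0 of all genes, with Nanog at 0.15 (adjusted p = 0.374) and Tbx3 at 0.33 (adjusted p = 0.618). Whether the EG and ES values differ was not tested. Without ES FCS line 1 the count over all lines was 0 (215 of all genes) and Nanog had an adjusted p of 0.0567. Without ES FCS line 3 the count was 5 (395 of all genes). It was 1 without any 1 of the EG FCS lines, EG 2is line 1, 2 or 4 or EG 2i line 2 or 4 (152 to 222 of all genes). With deviations taken from the group median the count was 0 (0 of all genes). Tbx3 lost its limma call when any 1 EG line was left out (adjusted p from 0.0515 to 0.16). It also lost the call on arrays centred on their median (adjusted p = 0.065). The Esrrb call was lost without any 1 of the EG FCS lines (limma, adjusted p from 0.114 to 0.121) and on residuals of the fit (adjusted p = 0.0931).

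Across the 9 serum lines, after subtraction of group means, 33 of the 36 pairs of factors had a positive Pearson r, a count given as a description. After adjustment over the 36 pairs, 2 passed a two-sided exact permutation test within groups: Esrrb with Klf4 (r = 0.965, adjusted p = 0.0438) and Nanog with Tbx3 (r = 0.931, adjusted p = 0.0438). By Spearman's rho 0 pairs passed, with rho of 0.967 (permutation, adjusted p = 0.0625) and 0.9 (permutation, adjusted p = 0.0708) for these pairs. Without the 2 lines farthest from the median of the first gene, r was 0.939 and 0.930. In the 6 serum lines of batch 1, Nanog and Tbx3 gave r = 0.951 (exact p = 0.0833) and Esrrb and Klf4 r = 0.999 (exact p = 0.0208, the smallest possible there), and batch 2 held too few serum lines. Leaving out 1 line gave between 0 and 5 pairs called, 0 without any 1 of the EG FCS lines or without ES FCS line 1, 3 or 4.

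In the 13 lines in 2i or 2is, 21 of 36 pairs were positive. Tfcp2l1 with Nr5a2 (r = 0.834, permutation, adjusted p = 0.0227) and Nanog with Tbx3 (r = 0.839, permutation, adjusted p = 0.0437) passed, and by Spearman 0 did, with rho of 0.681 (permutation, adjusted p = 0.127) and 0.835 (permutation, adjusted p = 0.0740). Without the 2 lines farthest from the median of the first gene r was 0.520 and 0.766, so the first relation rests in part on those lines. Esrrb and Klf4, the closest pair in serum, had r = -0.285 in 2i (permutation, adjusted p = 0.592). Nanog with Tbx3 was thus the 1 pair that passed in both media, although whether r differs between media was not tested. Leaving out 1 line gave 0 to 5 pairs here too, 0 without EG 2is line 1, EG 2i line 1 or 3 or ES 2i line 1, 3 or 5.

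**Figure D4:**
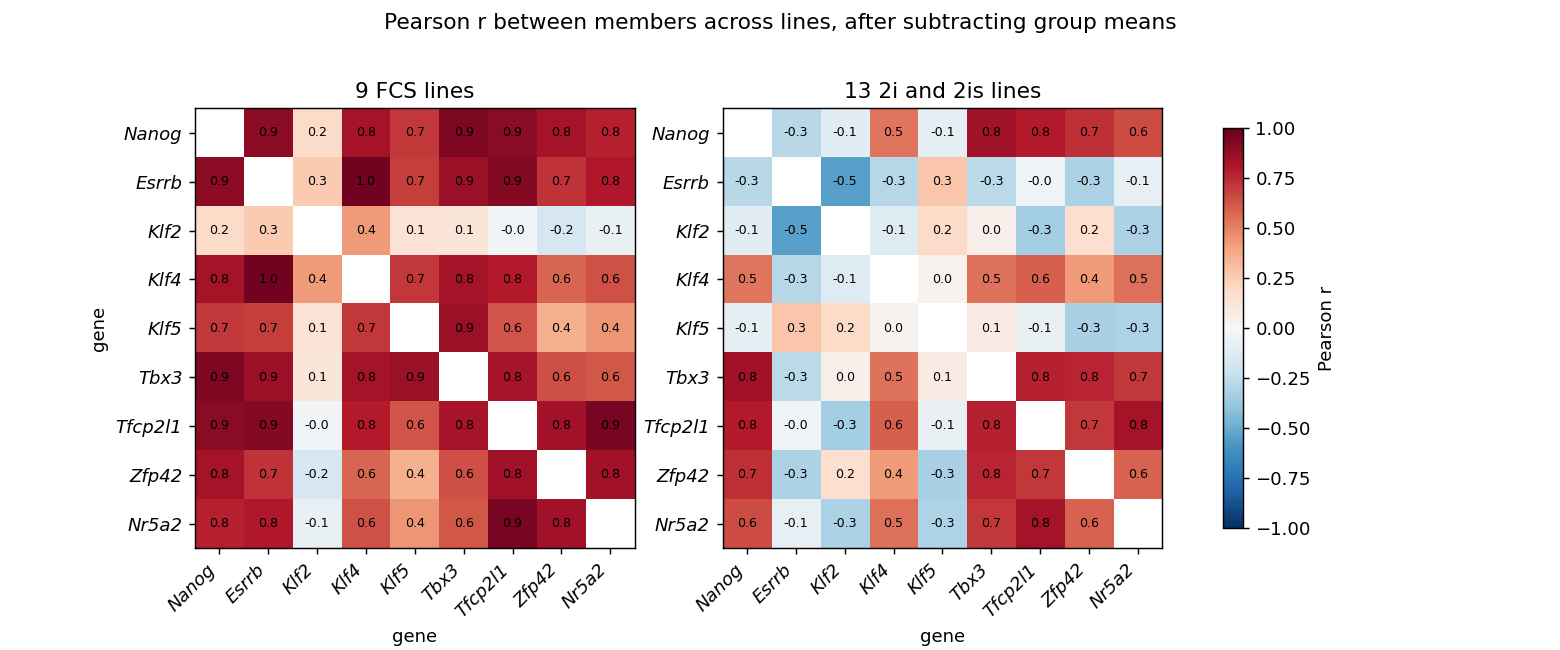
Pearson r of every pair of factors across the 9 FCS lines (left) and the 13 lines in 2i or 2is (right), after subtracting group means, with red positive and blue negative. On the left 33 of 36 pairs are positive and the pale row is that of Klf2; on the right 21 of 36 are positive.

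The feeder marker level moved with several factors across the serum lines, a relation examined after the values had been seen. The level was 5.47, 5.35, 5.65 and 5.90 in EG FCS lines 1 to 4 and 5.84, 5.32, 5.73, 5.48 and 5.45 in ES FCS lines 1 to 5, so the lines high in Nanog and Tbx3 were also high in feeder markers. Tbx3 followed it with r = 0.931 (exact permutation, adjusted p = 0.0031 over the 9 factors; rho = 0.967, adjusted p = 0.0062), Nanog with r = 0.903 (exact permutation, adjusted p = 0.0047; rho = 0.9, adjusted p = 0.0219) and Klf5 with r = 0.802 (exact permutation, adjusted p = 0.0115; rho = 0.783, adjusted p = 0.0573). Without the 2 lines farthest from the median r was 0.871, 0.825 and 0.689. The other 6 had r from 0.113 for Klf2 to 0.774 for Tfcp2l1 and did not pass. In the 6 serum lines of batch 1, r was 0.970 for Tbx3 (exact permutation p = 0.0208), 0.897 for Nanog (exact permutation p = 0.0833) and 0.929 for Klf5 (exact permutation p = 0.0208). The smallest p possible there is 0.0208, and the p-values are unadjusted. Between media the order was the opposite: in 2i, feeder markers were lower and Nanog and Tbx3 higher. The ES FCS lines highest in feeder level, lines 1 and 3, were the female ones. In EG FCS the female line was line 1, which lay below lines 3 and 4. The permutation had no sex term, and the part of sex in the relation was not tested.

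With the feeder level as a further term in the limma fit, the culture differences became larger. Nanog differed by 1.39 ± 0.18 (SE, log2; adjusted p = 3.2e-05) in EG 2i and by 1.27 ± 0.17 (adjusted p = 3.09e-05) in ES 2i. Tbx3 differed by 2.70 ± 0.32 and 2.97 ± 0.30, Tfcp2l1 by 2.82 ± 0.39 and 2.75 ± 0.37, Esrrb by 0.75 and 0.68 and Nr5a2 by 0.94 and 0.93, all with an adjusted p under 0.05. Klf2 differed by -0.69 and -0.76 (limma, adjusted p = 0.00269 and 0.000571). Klf5 differed by 0.65 (adjusted p = 0.0194) and 0.41 (adjusted p = 0.112). Klf4 (0.22 and 0.49) and Zfp42 (0.42 and 0.61) were not called, and both turned from negative to positive in EG 2i. Because the feeder level separates the media completely, these values extend the relation within a medium across a gap that holds no line, and the part of feeder RNA in the results was not tested otherwise.

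**Figure D5:**
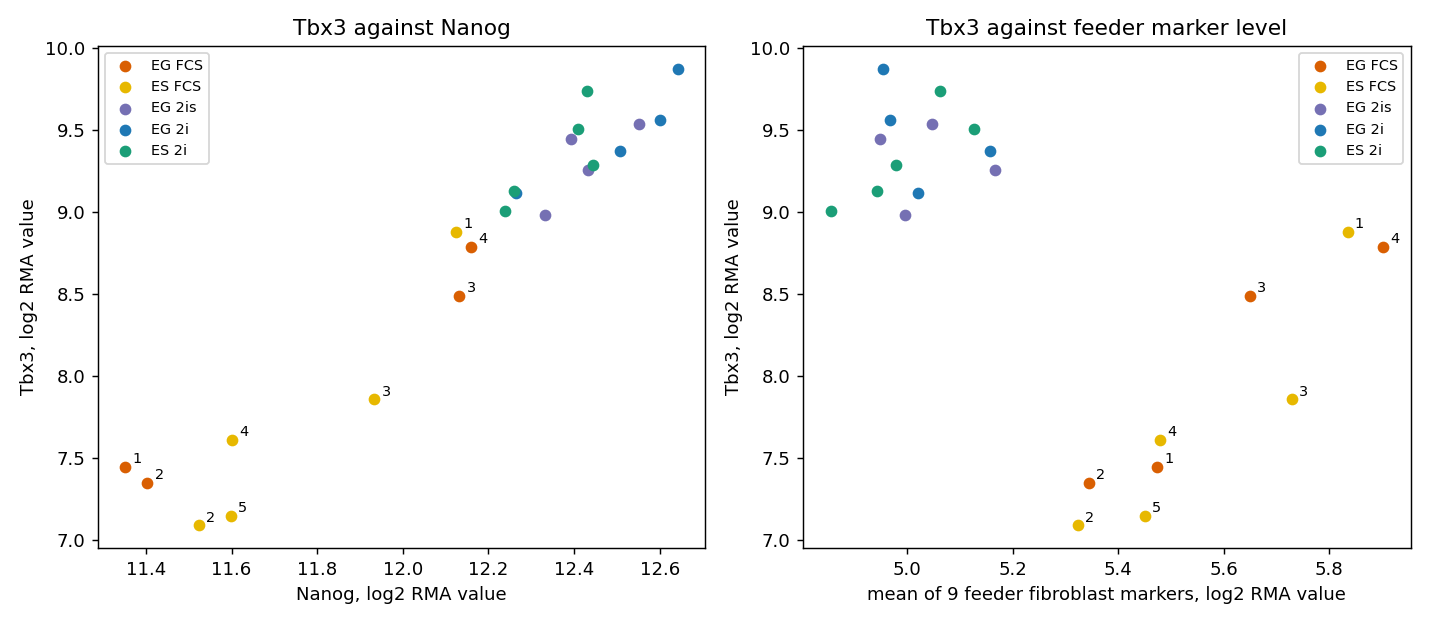
Tbx3 log2 value against Nanog log2 value (left) and against the mean log2 value of 9 feeder fibroblast markers (right) in all 22 lines, coloured by group, with line numbers on the FCS lines. On the right the FCS lines run upwards from a feeder level of 5.32 to 5.90, while all 2i and 2is lines lie at 4.86 to 5.17 and above every FCS line in Tbx3.

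Lists of other genes of the circuit are given by their counts, beside the 11.4% of all genes called higher and 12.5% called lower in EG 2i, and 16.6% and 14.9% in ES 2i. Of 15 further genes linked to the naive network, 5 rose and 1 fell in EG 2i against EG FCS, and 6 rose and 1 fell in ES 2i against ES FCS. Prdm14, a repressor of FGF signalling and of DNA methyltransferases, rose by 2.17 ± 0.24 (SE, log2; adjusted p = 3.13e-06) and 1.47 ± 0.21 (adjusted p = 1.81e-05). Spic, an ETS factor, rose by 2.37 (adjusted p = 4.96e-06) and 2.15 (adjusted p = 1.07e-06). Fbxo15 rose by 0.48 in EG 2i and 0.28 in ES 2i, and Zfp57, which protects imprints, by 0.56 and 0.78. Of 18 measured genes of the LIF, Wnt and MEK inputs and of repressors of the naive state, 2 rose and 6 fell in EG 2i, and 3 rose and 5 fell in ES 2i, so the risers were near the share over all genes. The fallers included Mbd3 (-0.67 and -0.46) and Zfp281 (-0.60 and -0.79), both chromatin-linked repressors. Socs3, the feedback inhibitor of LIF signalling (-1.23 and -0.62), and Lef1, a Wnt effector (-1.45 and -2.57), were also among them. Tcf7l1 rose by 0.57 (adjusted p = 0.00108) in EG 2i and had a difference of 0.13 (adjusted p = 0.355) in ES 2i.

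Of 24 measured paralogs of the factors, 5 rose and 7 fell in EG 2i (all genes: 11.4% and 12.5%), and 4 rose and 9 fell in ES 2i (all genes: 16.6% and 14.9%). The share that rose in ES 2i was near that of all genes. Klf6 fell by 1.56 (adjusted p = 1.79e-07) and by 1.27 (adjusted p = 1.16e-07) on the log2 scale. The differences in EG 2i and ES 2i were -0.66 and -0.55 for Klf16, -0.82 and -1.40 for Klf7, 0.90 and 0.81 for Klf8 and 0.51 and 1.05 for Klf15, all called. Among 7 measured core pluripotency genes 0 rose, and 3 fell in EG 2i and 5 in ES 2i. The differences were -2.65 and -1.90 for Utf1, -3.37 and -2.29 for Lin28a and -1.19 and -1.11 for Dppa4, all called, while Pou5f1 (-0.16, adjusted p = 0.0941, and -0.05, adjusted p = 0.61) and Sox2 (0.06 and -0.08) did not pass. Of 9 primed epiblast genes 1 rose and 6 fell in EG 2i, and 0 rose and 6 fell in ES 2i, among them Dnmt3b (-1.95 in EG 2i), Sox11 (-1.32 and -1.63), Sox4 (-1.28 and -1.35) and Fgf5 (-1.82 in ES 2i). The mean log2 value of Dnmt3b was 8.965 in ES FCS and 7.013 in ES 2i, and that of Fgf5 6.047 in EG FCS and 5.335 in EG 2i. Of the 9 feeder markers 0 rose, and 5 fell in EG 2i and 7 in ES 2i, among them Col1a1 (-1.66 and -1.23) and, in EG 2i, Col1a2 (-1.75). The mean log2 value of Col1a2 was 6.456 in ES FCS and 5.203 in ES 2i. Of 6 primitive endoderm genes 1 fell in EG 2i, Dab2 (-1.56), and 0 in ES 2i.

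Over all 22 arrays, the genes most like each factor were found by Pearson r, which is a description because the arrays share the contrast between media. Nanog was most like Tbx3 (r = 0.967), Nfatc2ip (0.963) and Sh3bp1 (0.953). Tbx3 was most like Nfatc2ip (0.982), Zfp57 (0.972) and Pdgfa (0.968). Tfcp2l1 was most like Ctdsp2 (0.971), Nanog (0.947) and Plekhg3 (0.943), and Nr5a2 like Tfcp2l1 (0.906), B4galt6 (0.891) and Ephb3 (0.884). Klf2 was most like Piezo1 (0.954), Epha2 (0.952) and Ier2 (0.938). Esrrb was nearest to Add3 (0.927), Cep55 (0.925) and Cpt1a (0.886). The nearest genes were less close for Klf4 (Phldb2, 0.826, Emp1, 0.767, and Mb21d2, 0.766), Klf5 (Zdhhc18, 0.813, Socs7, 0.806, and Uqcrc2, 0.803) and Zfp42 (Olfr671, 0.751, Lactbl1, 0.729, and Aspdh, 0.718).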

How the data were processed

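RNA of 22 cultures was labelled with biotin and hybridised to Affymetrix arrays. The authors deposited log2 expression values per probe set. Per the submitters' processing notes, RMA, limma and Affymetrix Expression Console were used. Their versions are not given in the sources used here. This summary method subtracts background and equalizes the arrays' distributions, which removes a global change in RNA amount. The table held 28853 probe sets, of which 21789 had 1 gene symbol and 1621 several. A gene was represented by its brightest probe set with 1 symbol. Values ran from 3.63 to 13.88, array medians from 5.54 to 5.62, the lowest correlation of 2 arrays of a group was 0.979, and 0 pairs were identical. The number of arrays limits the precision.

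Groups were taken from the sample titles. limma 3.58.1 in R 4.3.3 (lmFit, eBayes) was fitted to all arrays with group, labelled batch and labelled sex, and p-values were adjusted over 19938 genes (Benjamini-Hochberg). The batch term rests on ES lines alone. Spread was tested with limma on scaled absolute deviations. Pairs of factors were tested by permutation within groups, with all 2880 arrangements in FCS and 100000 resamples in 2i, with scipy 1.17.1 and numpy 2.4.6 under Python 3.11.15 (figures: matplotlib 3.10.9). The scripts were tested on simulated data.

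The 9 factors, the lists and the tests were chosen with earlier results of these data known. The text names all 9 factors, the 3 genes most like each, up to 3 genes a list, by smallest adjusted p, in EG 2i and ES 2i against FCS, and Pou5f1, Sox2, Prdm14 and Tcf7l1. Predicted genes were passed over. Alternatives covered the covariates, batches, normalization, gene filter, probe sets, a feeder term, array weights, a replicate block and leaving out each line. Each factor had 1 probe set, so averaging probe sets could not change its log2 difference. The gene filter could not either, and both could move only its adjusted p. The feeder relation, the sex differences and the order of the EG FCS lines were added after seeing the data.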

Additional observations from a re-analysis of the deposited data

Results flagged for a closer look

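Within each group, the gap between the highest or lowest line and its neighbour was set against the range of the group. Over 45 combinations of gene and group, 3 gaps passed Dixon's critical value (0.829 for 4 lines, 0.71 for 5), where chance gives about 1 in 20. Klf5 in ES FCS line 1, at 9.92 with the next line at 9.39, had a ratio of 0.729. Tfcp2l1 in EG 2i line 1, at 10.84 below the next line at 11.50, had a ratio of 0.835. Nr5a2 in ES 2i line 3, at 8.80 below the next line at 9.02, had a ratio of 0.734. ES FCS line 1 was also the highest ES FCS line in Nanog, Esrrb, Klf4, Tbx3 and Tfcp2l1.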

How the results depend on the processing

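Of 1980 recomputed values of single factors, 1863 stayed on their side of the threshold, 77 lost a call and 40 gained one. Among called values 0 turned sign, and 122 uncalled ones did. Only called values could lose a call, and most of the 1980 were not called in the main test. The comparisons by origin, by route into 2i and of the responses had 0 calls to lose. Of the 77 lost calls, 41 were in the spread. In EG 2i, EG 2is and ES 2i against FCS, 16, 12 and 8 were lost. The causes were not tested. Leaving out 1 line in turn gave 1 to 7 factors called in EG 2i against EG FCS (1 without EG FCS line 1), 2 to 7 in EG 2is against EG FCS (2 without that line), 4 to 6 in ES 2i against ES FCS, 0 to 5 in the spread, 0 to 5 pairs in FCS and 0 to 5 pairs in 2i. With batch 1 arrays alone, ES 2i against ES FCS called 2 factors and 2460 of all genes, with fewer lines fitted. The spread called 0 with deviations from the median, 5 with EG lines, 0 with ES lines, 5 with batch 1 and 1 without the 2is lines. Of all genes, the same settings called 0, 660, 0, 786 and 116, against 357 in the reported test. Pairs called in FCS were 10 on residuals of the fit, 0 on arrays centred on their median, 0 without batch 2 ES lines and 0 without the 2 farthest lines; in 2i they were 6 on centred arrays, 0 without batch 2 ES lines and 0 without the 2 farthest lines. The other counts of factors or pairs stayed within 1.5 times the reported count.

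With the replicate number as a block, 7, 7 and 5 factors were called in EG 2i, EG 2is and ES 2i against FCS. Klf5 was then called in both EG comparisons (limma, adjusted p = 0.0339 and 0.0244) and Nr5a2 in EG 2i. The EG lines were derived separately in each medium, and some of the same number differ in labelled sex. The numbers therefore do not pair EG lines, and these EG calls are not a paired result. In ES samples, labelled sex and batch agreed by number, but the labels do not state a pairing. Their deviations from group means correlated at 0.051, -0.013, 0.167, 0.053 and 0.241 by number, and only line 5 correlated best with its own number. Such correlations between media cannot decide whether the lines are shared. The main fit did not take the numbers as pairing.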
